A study of Mus musculus with 78 samples.

Results

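The methionine and S-adenosylmethionine (SAM) cycle was followed in mouse CD8+ T cells through 7 genes, Mat2a, Mat2b, Ahcy, Mtr, Mtrr, Mtap and Mettl16. They were chosen by name for their place in or beside the cycle, with earlier results of these data known. Each matched 1 of the 14695 rows of the count table, and all 7 were tested in every comparison. The cells were primary CD8+ T cells of C57BL/6J mice, from spleen and lymph node, on day 3 of activation, and no group carried a modified allele. One experiment, here the nutrient experiment, kept cells for 3 h in medium without arginine (NoArginine), without branched-chain amino acids (NoBCAA), without glucose (NoGlucose), without glutamine (NoGlutamine) or without methionine (NoMethionine), set against Control. The other, the drug experiment, exposed cells for 3 h to halofuginone (Halofuginone), an inhibitor of prolyl-tRNA synthetase, to Torin1 (Torin), an inhibitor of the kinase mTOR, or to 4EGI-1 (4EGi1), which blocks the binding of eIF4E to eIF4G, set against the solvent DMSO. Drug doses are not given in the sources used here. From each lysate 50 µL gave total RNA, and 400 µL went onto a sucrose gradient whose fractions 9 to 13 were pooled as polysome RNA, the mRNA that carried several ribosomes. Each group held 3 libraries. Nothing in the labels says that these came from separate cultures or animals, so p-values measure the spread between the libraries, which may be technical. All deprivations share the Control libraries and all drugs share the DMSO libraries, so their comparisons are not independent of each other.

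Cells make SAM, the donor of nearly all methyl groups, from methionine and ATP. Mat2a encodes the catalytic subunit of methionine adenosyltransferase in cells outside the liver, and Mat2b its regulatory subunit. After the methyl group is passed on, S-adenosylhomocysteine is split by the enzyme that Ahcy encodes, and methionine synthase (Mtr), kept active by its reductase (Mtrr), turns homocysteine back into methionine with a methyl group from folate. Mtap encodes the phosphorylase that returns the methylthioadenosine left over from polyamine synthesis to the methionine salvage pathway. Mettl16 encodes an RNA methyltransferase that, in human and mouse cells, binds hairpins in the 3′ end of the Mat2a mRNA and promotes its splicing when SAM is low. Activated T cells take up much methionine and methylate much RNA and DNA.

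Counts of the members were ample in the 60 libraries, with the lowest at 240 reads (Mtrr) and the highest at 55680 reads (Mat2a). Library totals ran from 15144663 to 30637485 in nutrient total RNA, from 29917770 to 54272886 in nutrient polysome RNA, from 17506526 to 23099949 in drug total RNA and from 17846266 to 24929556 in drug polysome RNA. The 8 genes read as markers of CD8 T cells were Cd8a, Cd8b1, Cd3d, Cd3e, Cd3g, Trac, Gzmb and Ifng. Of these only Cd8a and Cd8b1 encode CD8 itself. All were in the table, at 6360 to 22800 summed CPM, a count scaled to the size of its library. Markers of other cells were low where the table held them, with 2 of 4 B cell genes at 1.66 to 19.1 summed CPM and 2 of 2 platelet genes at 0 to 1.84 summed CPM. The B cell genes were higher in the drug experiment, at 5.81 to 19.1, than in the nutrient experiment, at 1.66 to 3.45, and their part in any result was not tested. In bulk RNA, fewer cells of a type and less RNA per cell cannot be told apart. Levels below are CPM scaled by TMM within 1 fraction of 1 experiment, so they are read across conditions and not between genes or experiments. A change is a log2 fold change against Control or DMSO with the standard error of the edgeR quasi-likelihood fit, and a gene was called at an adjusted p under 0.05.

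The upstream sequence of Mat2a is shown because its mRNA changed in all 5 deprivations, and that of Ahcy because its total RNA was called opposite to that of Mat2a in NoMethionine and NoGlucose cells. The NoGlucose call of Ahcy was lost when any 1 library compared was left out. In NoMethionine cells Mat2b, Mtap and Mettl16 were also called opposite to Mat2a in total RNA. All 7 members had an entry in the RefSeq promoter table of build GRCm38.p6, which is not the build the counts were made on, and Mtrr had 2. Both windows are the 250 bases before the annotated gene start, 5′ to 3′ on the gene's strand, the minus strand in each. The Mat2a window is chr6:72439557-72439806 and the Ahcy window chr2:155074498-155074747. Capitals mark matches, on either strand, to TATAAA, to CCAAT and to GGGCGG, which can overlap one another.
Mat2a: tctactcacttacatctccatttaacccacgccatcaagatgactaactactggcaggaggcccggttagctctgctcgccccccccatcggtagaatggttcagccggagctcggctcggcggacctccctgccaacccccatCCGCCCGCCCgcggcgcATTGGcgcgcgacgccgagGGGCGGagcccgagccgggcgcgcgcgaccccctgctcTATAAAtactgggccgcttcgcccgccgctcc
Ahcy: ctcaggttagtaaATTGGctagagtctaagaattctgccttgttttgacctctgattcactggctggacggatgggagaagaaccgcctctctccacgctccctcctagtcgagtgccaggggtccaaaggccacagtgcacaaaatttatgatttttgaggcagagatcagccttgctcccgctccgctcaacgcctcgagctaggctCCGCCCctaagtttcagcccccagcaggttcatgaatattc
TATAAA was in the Mat2a window, from 32 to 27 bases before the start, and in no window of the other members, and 12.4% of all 32851 windows held it. GGGCGG stood at 3 positions for Mat2a and at 1 for Ahcy, and 32.7% of all windows held it at least once. CCAAT was in the window of each of the 7 members, and 33.8% of all windows held it. The E-box CACGTG (6.02% of all windows) and the amino acid response composite TGATGNAA (3.45%) were in none of the members' windows. These letters are descriptions of the windows and not sites of binding.

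Mat2a was the member that moved furthest, and it moved up only in cells without methionine. In total RNA it stood at 681, 655 and 631 CPM in NoMethionine cells, against 359, 298 and 319 CPM in Control cells. The 2 groups did not overlap, and the change was 1.01 ± 0.08 (edgeR adjusted p = 3.43e-09, 656 ± 25.0 against 325 ± 31.1 CPM, SD, n = 3 each). The other 4 deprivations lowered it. In NoGlucose cells Mat2a stood at 98.3, 95.3 and 93.1 CPM, far below every Control library. That fall, -1.77 ± 0.08 (edgeR adjusted p = 1.89e-12), ranked 6th by p among the 12642 genes tested. Mat2a stood at 149, 156 and 163 CPM in NoGlutamine cells, at 169, 152 and 180.4 CPM in NoBCAA cells and at 189.9, 183 and 217 CPM in NoArginine cells. None of these 9 libraries reached the lowest Control library, and the changes were -1.06 ± 0.08, -0.96 ± 0.08 and -0.72 ± 0.08 (edgeR adjusted p = 9.06e-10, 7.15e-09 and 5.55e-06). From high to low the order of Mat2a in total RNA was NoMethionine, Control, NoArginine, NoBCAA, NoGlutamine and NoGlucose. Neighbours in that order did not overlap except NoBCAA and NoGlutamine, whose difference was not tested. No call of Mat2a in total or polysome RNA of the nutrient experiment was lost when any 1 library was left out.

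**Figure D1:**
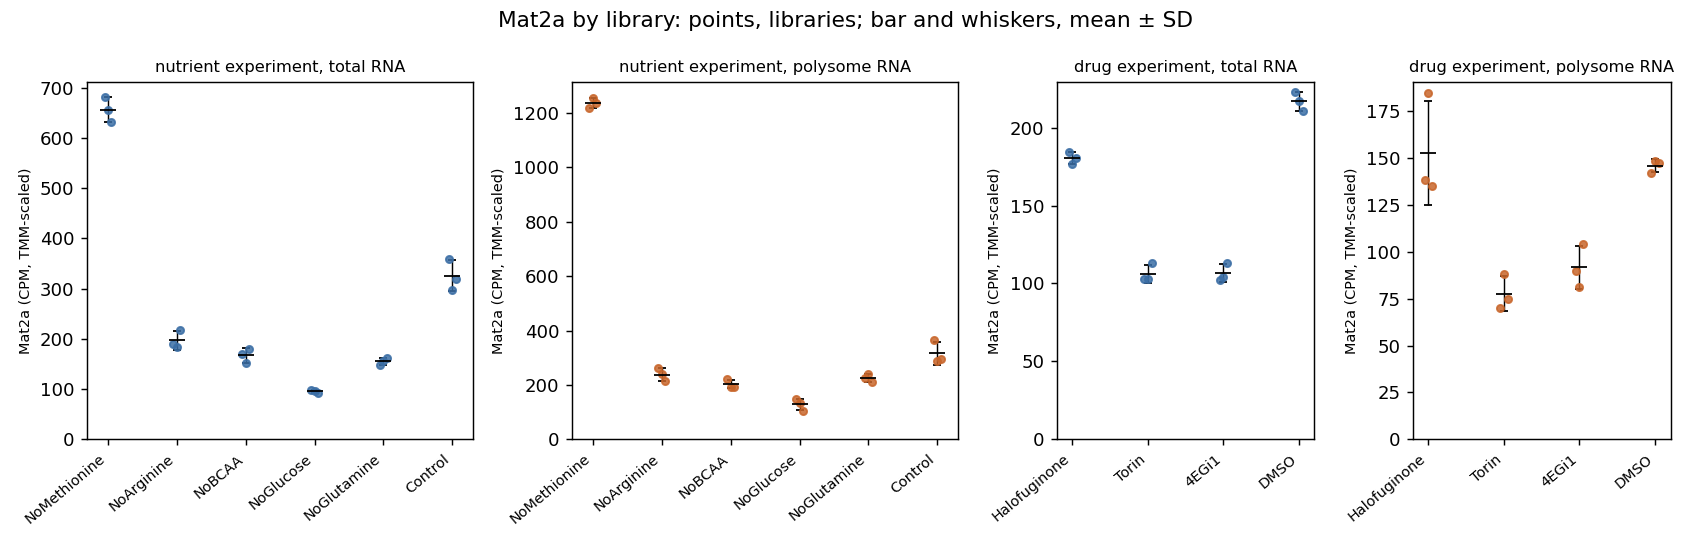
Mat2a level in every library (y axis, CPM scaled by TMM within each panel, from 0) by condition (x axis), for total RNA (blue) and polysome RNA (orange) of the nutrient and drug experiments. Points are libraries, and bars with whiskers are means ± SD of 3. The 3 NoMethionine libraries sit above all others in both fractions of the nutrient experiment, and the Torin and 4EGi1 libraries sit below all DMSO libraries.

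The same comparison in polysome RNA gave a larger rise. Mat2a stood at 1219, 1255 and 1235 CPM in polysomes of NoMethionine cells, against 365, 288 and 294 CPM in polysomes of Control cells. The lowest NoMethionine library was more than 3 times the highest Control library, and the change was 1.97 ± 0.11 (edgeR adjusted p = 3.6e-11). In the other deprivations the polysome level was lower than in Control, by smaller amounts than in total RNA. The changes were -1.30 ± 0.11 in NoGlucose, -0.64 ± 0.11 in NoBCAA, -0.48 ± 0.11 in NoGlutamine and -0.41 ± 0.11 in NoArginine cells, with edgeR adjusted p of 0.00584 or less. Translational efficiency (TE) sets polysome RNA over total RNA and compares this ratio between a condition and Control or DMSO, as an interaction test. The median TE of all genes was -0.149 in NoGlutamine, -0.135 in NoMethionine, -0.124 in NoBCAA, -0.0752 in NoGlucose and -0.0393 in NoArginine cells. Each TE was tested against 0 and not against these medians. The TE of Mat2a was positive in all 5 deprivations and was called in 3, NoMethionine (0.87 ± 0.13, edgeR adjusted p = 1.6e-06), NoGlutamine (0.44 ± 0.13, edgeR adjusted p = 0.0082) and NoGlucose (0.39 ± 0.13, edgeR adjusted p = 0.0288). The NoGlucose call was lost without Control replicate 2 or 3 or without NoGlucose replicate 1 or 2, with edgeR adjusted p up to 0.137. In NoArginine cells the TE of Mat2a was 0.30 ± 0.13 (edgeR adjusted p = 0.109), and it passed with the lysate as a block (edgeR adjusted p = 0.044). Lysate by lysate, the log2 ratio of polysome to total CPM of Mat2a was 0.77, 0.88 and 0.90 in NoMethionine cells, against 0.02, 0.00061 and -0.09 in Control cells. Its ratio in Control cells did not differ from 0 by the test (-0.02 ± 0.09, edgeR adjusted p = 0.859).

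NoMethionine was set directly against each of the other deprivations, which share no library with it. These comparisons all use the same NoMethionine libraries, so they are not independent of each other. Mat2a was higher in NoMethionine cells in each. In total RNA the difference from NoGlucose was 2.78 ± 0.08, from NoGlutamine 2.07 ± 0.08, from NoBCAA 1.97 ± 0.08 and from NoArginine 1.74 ± 0.08. Mat2a ranked 1st of 12642 genes by p in the first 3 of these comparisons and 4th in the last, with edgeR adjusted p of 4.2e-12 or less. In polysome RNA the differences were 3.27 ± 0.12, 2.45 ± 0.11, 2.61 ± 0.12 and 2.38 ± 0.11 in the same order, with ranks of 2nd, 2nd, 2nd and 5th of 12417 genes. NoGlucose cells also held less Mat2a than NoGlutamine cells in total RNA, by -0.71 ± 0.08 (edgeR adjusted p = 1.03e-06).

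The drug experiment lowered Mat2a with 2 of its 3 compounds. In total RNA Mat2a stood at 103, 103 and 113 CPM with Torin and at 102, 104 and 113 CPM with 4EGi1, against 223, 217 and 210.4 CPM with DMSO. Neither drug group overlapped DMSO, and the changes were -1.03 ± 0.07 with Torin (edgeR adjusted p = 4.68e-08, 7th of 12535 genes by p) and -1.03 ± 0.07 with 4EGi1 (edgeR adjusted p = 2.26e-08, 15th). Torin and 4EGi1 overlapped, and their difference was -0.0047 ± 0.069 (edgeR adjusted p = 0.965), so that 2 standard errors either side spanned -0.14 to 0.13. With Halofuginone Mat2a stood at 184, 176 and 181 CPM in total RNA. These 3 libraries lay below all DMSO libraries, but the change of -0.26 ± 0.07 did not pass (edgeR adjusted p = 0.175). DESeq2 called it at an adjusted p of 0.0191. In polysome RNA the changes were -0.91 ± 0.15 with Torin, -0.67 ± 0.14 with 4EGi1 and 0.07 ± 0.14 with Halofuginone (edgeR adjusted p = 0.000428, 0.00281 and 0.879). The TE of Mat2a was not called with any drug, at 0.34 ± 0.16 with Halofuginone, 0.17 ± 0.16 with Torin and 0.42 ± 0.16 with 4EGi1 (edgeR adjusted p = 0.874, 0.69 and 0.198).

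Mat2b, the regulatory partner, did not follow Mat2a. In total RNA of NoMethionine cells it stood at 64.3, 66.2 and 67.9 CPM, against 72.1, 76.0 and 77.3 CPM in Control cells. The groups did not overlap, but the fall was small, -0.18 ± 0.06 (edgeR adjusted p = 0.0253), and it was lost without Control replicate 2 or 3 (edgeR adjusted p up to 0.0959) and with only these groups in the fit (0.0915). In polysome RNA Mat2b stood at 40.0, 41.3 and 38.3 CPM in NoMethionine cells, against 62.6, 70.7 and 63.3 CPM in Control cells, a fall of -0.72 ± 0.07 (edgeR adjusted p = 2.51e-08). It also fell in polysomes of NoGlutamine cells (-0.40 ± 0.07, edgeR adjusted p = 4.1e-05) and NoGlucose cells (-0.36 ± 0.07, edgeR adjusted p = 0.00015), with total RNA not called in either. Its TE fell in those 3 deprivations, by -0.62 ± 0.09 in NoMethionine, -0.50 ± 0.09 in NoGlutamine and -0.37 ± 0.09 in NoGlucose cells (edgeR adjusted p = 1.54e-06, 8.46e-05 and 0.00339), and without NoGlucose replicate 1 the last had an edgeR adjusted p of 0.0518. The 2 subunits of the same enzyme thus had TE changes of opposite sign in these 3 comparisons. Torin was the 1 drug that raised Mat2b. It stood at 106, 98.8 and 101 CPM in total RNA with Torin, against 73.7, 82.3 and 79.2 CPM with DMSO (0.38 ± 0.07, edgeR adjusted p = 0.000601), and its polysome RNA rose by 0.52 ± 0.13 (edgeR adjusted p = 0.00913).

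Ahcy, whose product removes S-adenosylhomocysteine, changed in opposite directions in the 2 fractions. In total RNA of NoMethionine cells it stood at 263, 255 and 265 CPM, against 306, 305 and 298 CPM in Control cells (-0.22 ± 0.05, edgeR adjusted p = 0.00337). In polysome RNA it stood at 496, 508 and 547 CPM in NoMethionine cells, against 423, 410.0 and 419 CPM in Control cells (0.31 ± 0.06, edgeR adjusted p = 0.000264). All 3 NoMethionine libraries were below Control in the first fraction and above it in the second, and the TE was 0.44 ± 0.08 (edgeR adjusted p = 1.76e-05). NoGlucose gave the reverse order. Ahcy stood at 326, 341 and 333 CPM in total RNA of NoGlucose cells, above every Control library, by 0.14 ± 0.05 (edgeR adjusted p = 0.045). That call was lost without any 1 of the 6 libraries compared, under another scaling (RLE, edgeR adjusted p = 0.0702) and with no filter on low counts (edgeR adjusted p = 0.0512). In polysome RNA Ahcy stood at 318, 298 and 314 CPM in NoGlucose cells, below every Control library (-0.43 ± 0.06, edgeR adjusted p = 1.29e-05). The TE was -0.65 ± 0.08 (edgeR adjusted p = 1.9e-07), 55th of 13072 genes by p, and no lysate left out ended that call. Ahcy was not called in any other deprivation in either fraction. With Torin its polysome RNA fell by -0.45 ± 0.12 (edgeR adjusted p = 0.0147) and its total RNA was 0.17 ± 0.07 (edgeR adjusted p = 0.0801). The log2 polysome to total ratio of Ahcy was -0.21, -0.14 and -0.17 with Torin, against 0.37, 0.46 and 0.36 with DMSO. The TE of -0.57 ± 0.13 (edgeR adjusted p = 0.0187) was lost without DMSO lysate 1 or 3 or any 1 of the Torin lysates, with edgeR adjusted p up to 0.139. The polysome call was lost without DMSO replicate 1 or Torin replicate 1 or 4 (edgeR adjusted p up to 0.0678).

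**Figure D2:**
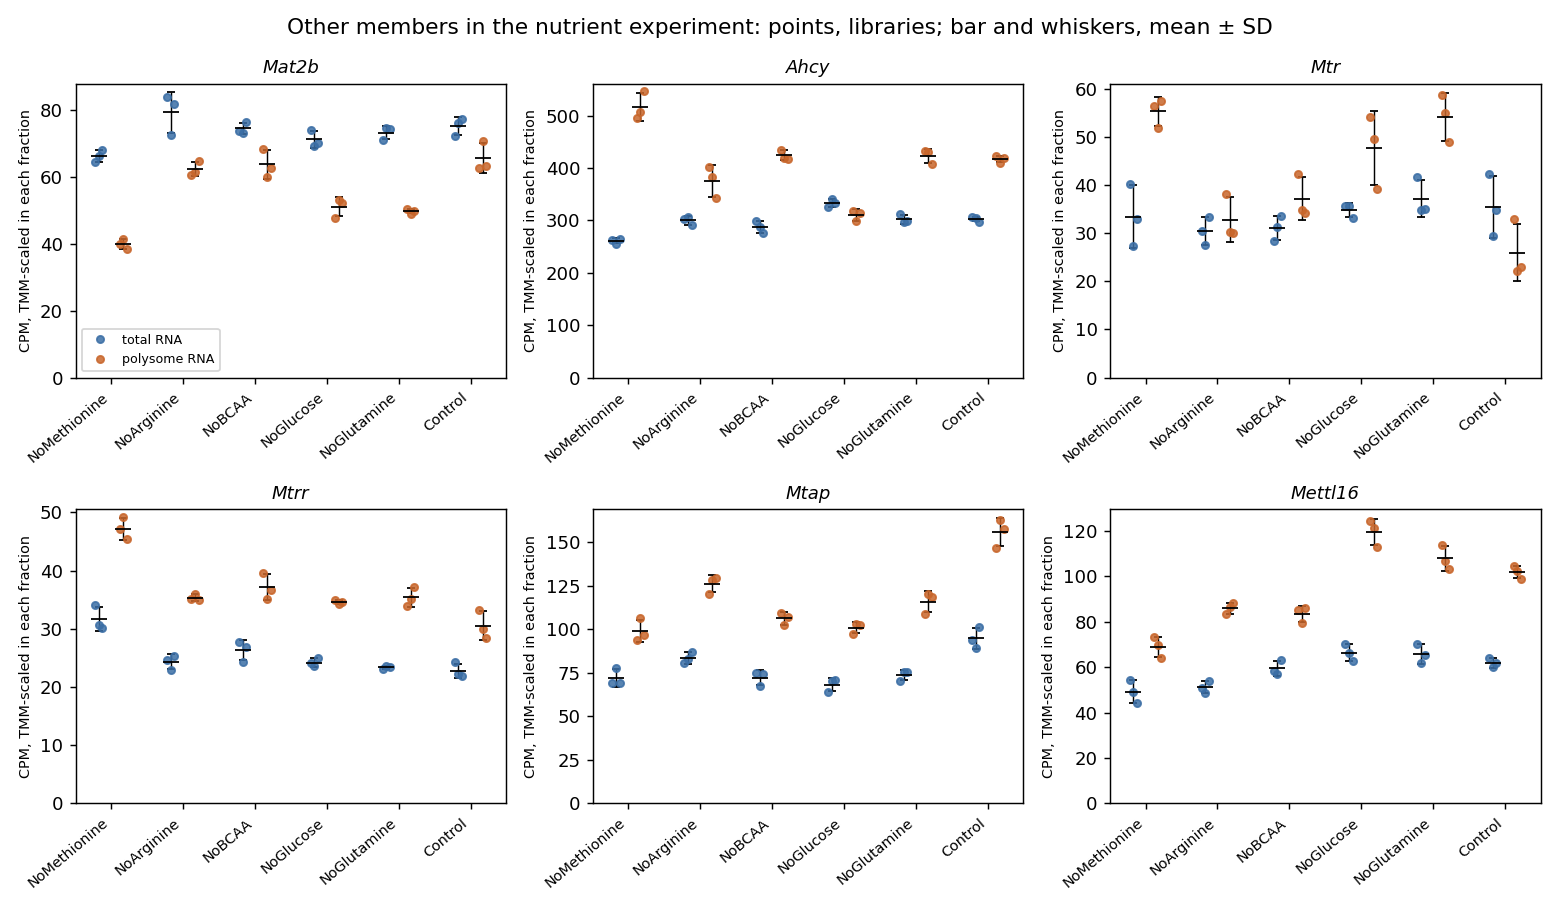
Levels of the other 6 members in the nutrient experiment (y axes, CPM scaled by TMM within each fraction, from 0) by condition (x axes), with total RNA in blue and polysome RNA in orange. Points are libraries, and bars with whiskers are means ± SD of 3. Mtr and Mtrr are higher and Mat2b, Mtap and Mettl16 lower in NoMethionine polysomes than in Control polysomes, and Ahcy differs from Control in opposite directions in the 2 fractions.

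Of the remethylation genes, Mtr rose in polysome RNA of 4 deprivations. Mtr was called in total RNA of none of the 5 deprivations, where its changes ran from -0.22 to 0.07, no DESeq2 fit called it either, and the libraries of each overlapped Control. In polysome RNA Mtr stood at 56.5, 51.9 and 57.5 CPM in NoMethionine cells and at 58.7, 55.0 and 48.9 CPM in NoGlutamine cells, against 32.9, 22.1 and 23.0 CPM in Control cells. Neither group overlapped Control, and the rises were 1.09 ± 0.14 and 1.06 ± 0.14 (edgeR adjusted p = 1.54e-06 and 2.67e-06). Mtr also rose in polysomes of NoGlucose (0.87 ± 0.14, edgeR adjusted p = 3.49e-05) and NoBCAA cells (0.52 ± 0.14, edgeR adjusted p = 0.00495). Control replicate 1 was the highest Control library in polysomes, and each of these 4 polysome calls held when any 1 library was left out. In NoArginine cells the change was 0.34 ± 0.14 (edgeR adjusted p = 0.0657), and DESeq2 and RLE scaling each called it (adjusted p = 0.0246 and 0.0402). The TE of Mtr rose in the same 4 deprivations, by 1.09 ± 0.19 in NoMethionine, 0.86 ± 0.19 in NoGlutamine, 0.82 ± 0.19 in NoGlucose and 0.60 ± 0.19 in NoBCAA cells (edgeR adjusted p = 1.91e-05, 0.000753, 0.00194 and 0.0205). The NoBCAA call was lost without NoBCAA replicate 1 or Control replicate 3 (edgeR adjusted p up to 0.142). The NoArginine TE of 0.54 ± 0.19 had an edgeR adjusted p of 0.0507, and of 0.00515 with the lysate as a block. With 4EGi1 Mtr rose in total RNA (0.39 ± 0.11, edgeR adjusted p = 0.0111, up to 0.0648 without 4EGi1 replicate 4 or DMSO replicate 4) and in polysome RNA (0.59 ± 0.15, edgeR adjusted p = 0.00721).

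Mtrr, the reductase that keeps methionine synthase active, rose in both fractions of NoMethionine cells. In total RNA it stood at 34.0, 30.7 and 30.2 CPM in NoMethionine cells, against 24.2, 22.2 and 21.8 CPM in Control cells (0.48 ± 0.07, edgeR adjusted p = 3.42e-05). In polysome RNA it stood at 47.2, 49.1 and 45.4 CPM in NoMethionine cells, against 33.3, 29.9 and 28.5 CPM in Control cells (0.63 ± 0.07, edgeR adjusted p = 1.4e-07). Its TE was not called in any deprivation, with values from -0.04 to 0.10, and no other scaling, filter or block, nor DESeq2, called it. The other 4 deprivations raised its polysome RNA by 0.18 to 0.28, with edgeR adjusted p from 0.00186 (NoBCAA) to 0.0327 (NoGlucose). The NoGlucose call was lost without 5 of the 6 libraries, and those of NoArginine and NoGlutamine were each lost without 2. With only the groups compared in the fit, NoGlucose and NoArginine missed the threshold (edgeR adjusted p = 0.103 and 0.0649). In total RNA Mtrr also rose in NoBCAA cells (0.21 ± 0.07, edgeR adjusted p = 0.0363, up to 0.137 without 1 library, with 4 of 6 ending the call). No drug moved Mtrr past the threshold in either fraction.

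Mtap, the salvage gene, was lower than Control in each of the 10 comparisons with a deprivation and was called in 9. In total RNA it stood at 63.8, 70.3 and 70.6 CPM in NoGlucose cells and at 69.0, 77.9 and 69.3 CPM in NoMethionine cells, against 93.9, 89.2 and 101 CPM in Control cells. No library of either deprivation reached Control, and the falls were -0.47 ± 0.07 and -0.39 ± 0.07 (edgeR adjusted p = 1.56e-05 and 0.00014). NoBCAA and NoGlutamine gave -0.39 ± 0.07 and -0.36 ± 0.07 (edgeR adjusted p = 0.00018 and 0.000273), and NoArginine -0.19 ± 0.07 (edgeR adjusted p = 0.103). In polysome RNA Mtap stood at 93.9, 106 and 96.8 CPM in NoMethionine cells, against 147, 163 and 158 CPM in Control cells. The polysome falls were -0.65 ± 0.07 in NoMethionine, -0.62 ± 0.07 in NoGlucose, -0.55 ± 0.07 in NoBCAA, -0.43 ± 0.07 in NoGlutamine and -0.30 ± 0.07 in NoArginine cells, with edgeR adjusted p of 0.00132 or less. The TE of Mtap fell by -0.35 ± 0.10 in NoMethionine cells (edgeR adjusted p = 0.00366, 0.0512 without Control replicate 2) and by -0.27 ± 0.10 in NoBCAA cells (edgeR adjusted p = 0.0416, lost without 4 of 6 lysates and up to 0.263). With only the groups compared in the fit both were lost (edgeR adjusted p = 0.136 and 0.163), and the NoBCAA call also under RLE scaling and with DESeq2 (adjusted p = 0.124 and 0.0945). With the lysate as a block the TE of NoGlucose (-0.24 ± 0.10) and NoGlutamine (-0.20 ± 0.10) also passed, at edgeR adjusted p of 0.0257 and 0.0416, where the fit without it gave 0.0754 and 0.108. Torin lowered Mtap in both fractions. In polysome RNA it stood at 69.2, 65.6 and 60.8 CPM with Torin, against 126, 108 and 108 CPM with DMSO (-0.81 ± 0.13, edgeR adjusted p = 0.00041), and in total RNA the fall was -0.35 ± 0.08 (edgeR adjusted p = 0.00244). With 4EGi1 total RNA fell by -0.28 ± 0.08 (edgeR adjusted p = 0.0106), and polysome RNA was -0.31 ± 0.13 (edgeR adjusted p = 0.0744).

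Mettl16, the methyltransferase that binds Mat2a mRNA, was lower in the 1 deprivation in which Mat2a was higher. In total RNA it stood at 54.3, 48.9 and 44.1 CPM in NoMethionine cells, against 64.1, 59.9 and 61.8 CPM in Control cells (-0.33 ± 0.08, edgeR adjusted p = 0.00172). In polysome RNA it stood at 73.0, 69.7 and 64.1 CPM in NoMethionine cells, against 104, 102 and 98.9 CPM in Control cells (-0.56 ± 0.07, edgeR adjusted p = 3.24e-07). The groups did not overlap in either fraction, and the TE was -0.32 ± 0.10 (edgeR adjusted p = 0.00689, 0.178 with only these groups in the fit). NoArginine lowered total RNA (-0.28 ± 0.08, edgeR adjusted p = 0.0262, up to 0.127 and lost without 4 of 6 libraries) and polysome RNA (-0.25 ± 0.07, edgeR adjusted p = 0.00572). NoBCAA lowered polysome RNA (-0.29 ± 0.07, edgeR adjusted p = 0.00101) and the TE (-0.34 ± 0.10, edgeR adjusted p = 0.00983, 0.0607 without Control replicate 2), with total RNA not called. In both NoArginine and NoBCAA cells Mat2a was lower than in Control cells too. NoGlucose, the deprivation with the lowest Mat2a, raised Mettl16 in polysome RNA by 0.23 ± 0.07 (edgeR adjusted p = 0.00516), and total RNA was 0.10 ± 0.08 (edgeR adjusted p = 0.327). NoMethionine against NoGlucose, which compares these directly, gave -0.43 ± 0.08 in total RNA and -0.79 ± 0.07 in polysome RNA (edgeR adjusted p = 0.000192 and 1.97e-08). Against NoArginine Mettl16 was not called in total RNA (-0.06 ± 0.08, edgeR adjusted p = 0.654) and was lower in polysome RNA (-0.32 ± 0.07, edgeR adjusted p = 0.000458). Against NoBCAA and NoGlutamine it was called lower in both fractions. With Torin and with 4EGi1 Mettl16 and Mat2a were both lower. Mettl16 stood at 39.2, 37.0 and 35.6 CPM in total RNA with Torin, against 63.8, 60.9 and 59.1 CPM with DMSO (-0.72 ± 0.08, edgeR adjusted p = 3.21e-06), and its polysome RNA fell by -0.75 ± 0.13 (edgeR adjusted p = 0.000575). With 4EGi1 the falls were -0.30 ± 0.07 in total RNA and -0.61 ± 0.13 in polysome RNA (edgeR adjusted p = 0.00724 and 0.00205). Torin lowered total Mettl16 further than 4EGi1 did, by -0.42 ± 0.08 (edgeR adjusted p = 0.000345), while the Mat2a levels of the 2 drugs overlapped.

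**Figure D3:**
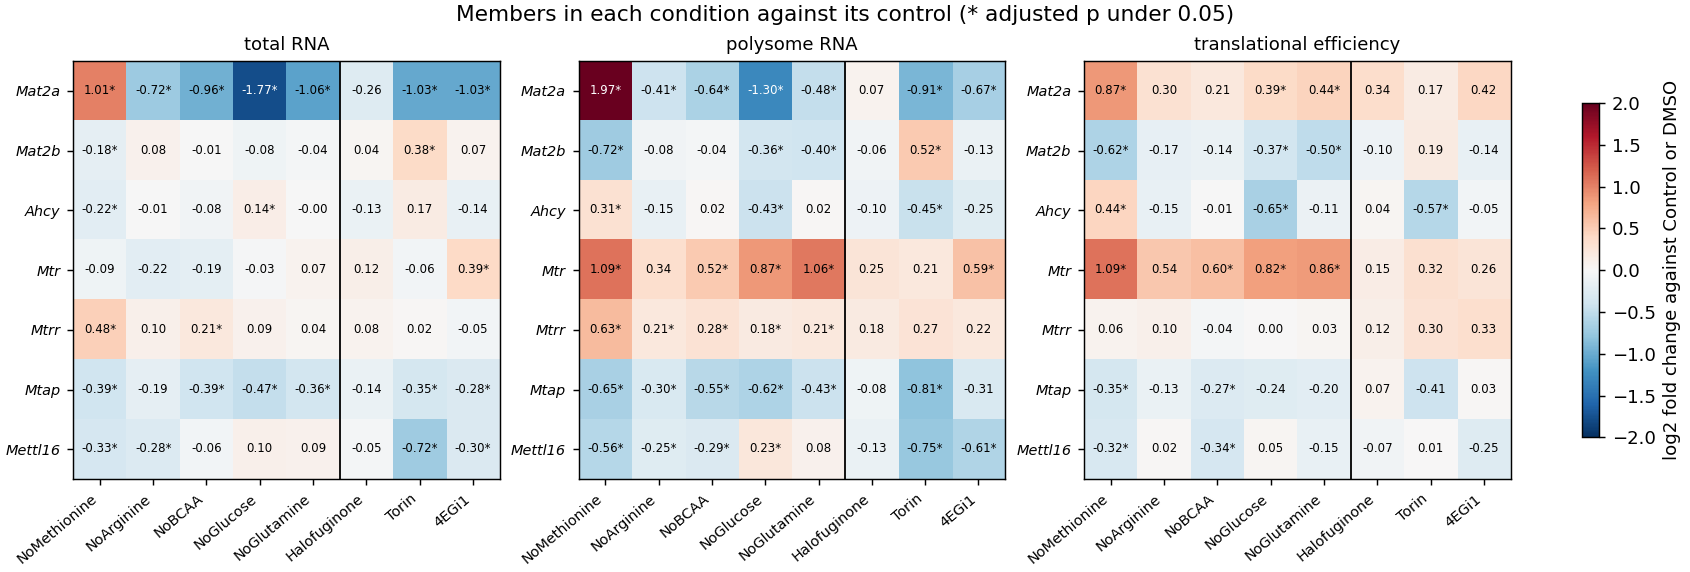
Log2 fold change of each member (rows) in each condition against Control or DMSO (columns), printed in the cell and coloured from -2 (blue) to 2 (red), for total RNA, polysome RNA and TE. A star marks an edgeR adjusted p under 0.05, and a vertical line parts the deprivations from the drugs. Mat2a has the deepest colours in total and polysome RNA, and Mtr the deepest in TE. Halofuginone has no star, and in the NoMethionine column 6 members are called in total RNA and all 7 in polysome RNA.

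The number of members called was read against the share of all genes called in the same comparison. The members were chosen with earlier results of these data known, so the counts describe them and are not a test against that share. In total RNA of NoMethionine cells 2 members were higher and 4 lower, 6 of 7, where 35.2% of all genes tested were called. In NoGlucose cells 1 was higher and 2 lower (40.8% of all genes), in NoGlutamine cells 2 lower (39.0%), in NoBCAA cells 1 higher and 2 lower (30.1%) and in NoArginine cells 2 lower (9.24%). With 7 members these shares are coarse, and outside NoMethionine and NoArginine they lie near the background. Of the 2 NoArginine calls, that of Mettl16 was lost without Control replicate 1 or 3 or NoArginine replicate 1 or 2. The median change of the 7 was -0.18 in NoMethionine cells, where the median of all genes was 0.02. In polysome RNA all 7 members were called in NoMethionine cells, 4 higher and 3 lower (69.0% of all genes), and all 7 in NoGlucose cells, 3 higher and 4 lower (59.0%). There were 5 in NoGlutamine cells (64.5%), 5 in NoBCAA cells (56.1%) and 4 in NoArginine cells (40.5%), which stand close to the background. For TE the counts were 6 of 7 in NoMethionine (49.1% of all genes), 4 in NoGlucose (25.8%), 3 in NoGlutamine (35.2%), 3 in NoBCAA (26.9%) and 0 in NoArginine cells (16.5%). At an unadjusted p under 0.05 the edgeR fit had 2 members there, Mat2a and Mtr, and DESeq2 called 1, Mtr.

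**Figure D4:**
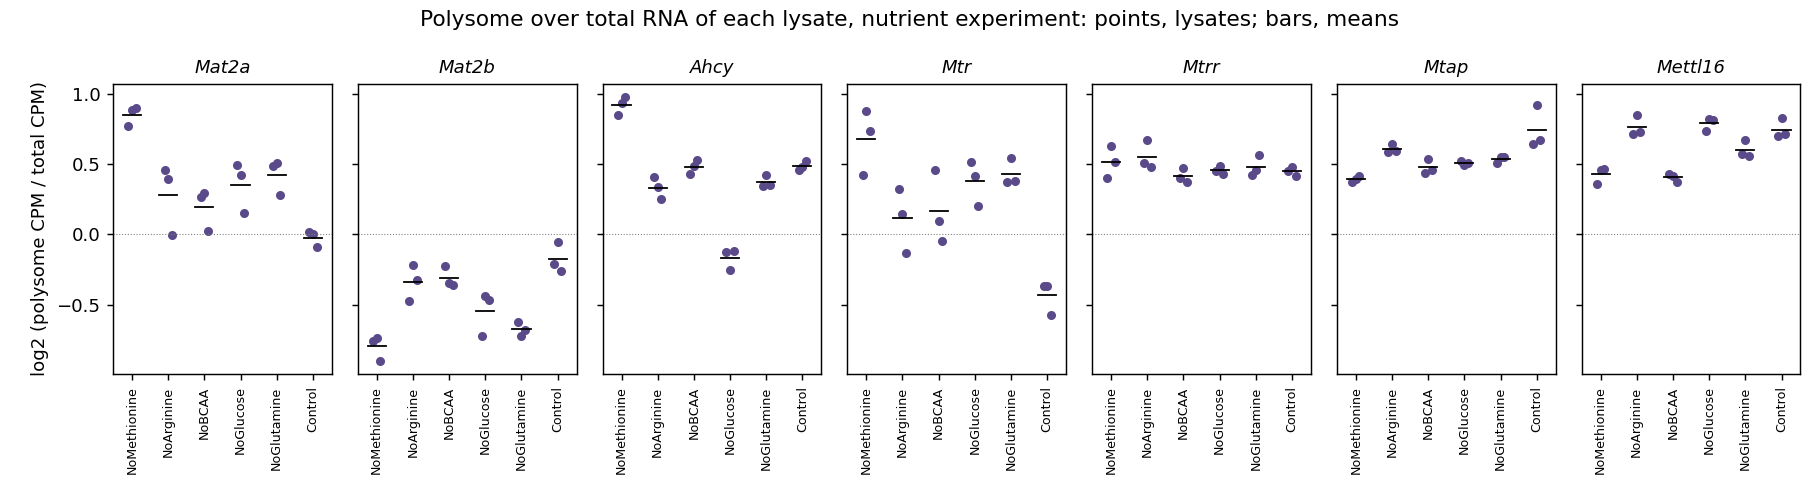
Log2 ratio of polysome to total CPM (y axis, both fractions scaled together) of each member in each lysate of the nutrient experiment, by condition (x axis). Points are lysates and bars their means, and the dotted line marks a ratio of 0. Mat2a, Ahcy and Mtr lie higher and Mat2b, Mtap and Mettl16 lower in NoMethionine than in Control lysates, and Ahcy in NoGlucose lysates lies below 0.

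In the controls the members already differed in their polysome share relative to all mRNA. In Control cells the log2 polysome to total ratio was 0.74 ± 0.07 for Mettl16, 0.74 ± 0.07 for Mtap, 0.49 ± 0.05 for Ahcy and 0.45 ± 0.07 for Mtrr, all called higher. It was -0.43 ± 0.14 for Mtr and -0.17 ± 0.07 for Mat2b, both called lower, so that 6 of 7 members were called where 65.7% of all genes were. The Mtr call was lost without Control replicate 3 and the Mat2b call without Control replicate 1 or 3. In DMSO cells 6 of 7 were called (59.3% of all genes), but not the same 6. The labels call the nutrient libraries total RNA and the drug libraries polyA RNA. The ratios of Control and DMSO cells were not tested against each other, so they are not read as a difference between them. Mtap was at 0.64 ± 0.10, Mettl16 at 0.55 ± 0.10 and Ahcy at 0.40 ± 0.09. Mat2a, not called in Control cells, was at -0.46 ± 0.12, Mtr at -0.37 ± 0.13 and Mat2b at -0.33 ± 0.10. Mtrr was not called in DMSO cells (-0.11 ± 0.14, edgeR adjusted p = 0.501). Without DMSO replicate 1 the Mtr call was lost and without DMSO replicate 3 the Mat2b call.

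NoMethionine was also set against each other deprivation. In total RNA 5 of 7 differed from NoArginine (25.1% of all genes), 3 from NoBCAA (13.4%), 4 from NoGlucose (34.0%) and 4 from NoGlutamine (25.7%). Mat2a and Mtrr were higher in NoMethionine in each of the 4. With only the 2 groups of each comparison in the fit, the 16 calls became 10, with those of Ahcy, Mat2b and Mtap against NoArginine, Mtrr and Mettl16 against NoBCAA and Ahcy against NoGlutamine lost. In polysome RNA 7 differed from NoArginine (53.9% of all genes), 6 from NoBCAA (44.8%), 5 from NoGlucose (52.7%) and 6 from NoGlutamine (45.8%). Mat2a, Ahcy and Mtrr were higher and Mat2b and Mettl16 lower in NoMethionine polysomes in all 4 of these. NoGlucose and NoGlutamine differed in total RNA at Mat2a and Ahcy (32.5% of all genes), and the Ahcy call (0.14 ± 0.05, edgeR adjusted p = 0.0482) was lost under RLE scaling, with no filter and without 5 of 6 libraries.

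Under the drugs 4 of 7 members were called in total RNA with Torin, Mat2b higher and Mat2a, Mtap and Mettl16 lower (26.7% of all genes). With 4EGi1 4 of 7 were called, Mtr higher and Mat2a, Mtap and Mettl16 lower (26.4%). Halofuginone gave 0 of 7 (0.279% of all genes) by edgeR, with 1 member, Mat2a, at an unadjusted p under 0.05 and called by DESeq2. In polysome RNA Torin gave 5 of 7 (16.8% of all genes), 4EGi1 3 of 7 (28.6%) and Halofuginone 0 of 7 (0.0491%), with 0 at an unadjusted p under 0.05 and 0 by DESeq2. TE gave 1 of 7 with Torin (1.79% of all genes), 0 with 4EGi1 (0.565%) and 0 with Halofuginone (0%) by edgeR. At an unadjusted p under 0.05 there was 1 member, Mat2a, for TE with 4EGi1 and 1, Mat2a, with Halofuginone, and DESeq2 called 0 in each. Between drugs in total RNA 4 of 7 differed between Torin and 4EGi1 (37.3% of all genes), 4 between Torin and Halofuginone (22.2%) and 2 between 4EGi1 and Halofuginone (21.4%). Ahcy and Mat2b were higher with Torin than with 4EGi1, by 0.31 ± 0.07 and 0.30 ± 0.07, and Mtr and Mettl16 lower, by -0.45 ± 0.11 and -0.42 ± 0.08, with edgeR adjusted p of 0.00308 or less.

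Genes around the cycle were read from lists of known members, also chosen with earlier results of these data known. Methionine enters through amino acid transporters, and 5 of the 8 tested rose in total RNA of NoMethionine cells and 0 fell, where 35.2% of all genes were called (list median 0.50, all genes 0.02). Slc3a2, the shared heavy chain of several transporters, averaged 758 ± 74.7 CPM in NoMethionine cells and 293 ± 22.9 CPM in Control cells (1.37 ± 0.09, edgeR adjusted p = 1.19e-10). Slc38a2 and the Slc3a2 partner Slc7a5 rose by 0.83 ± 0.07 and 0.70 ± 0.08. NoGlucose also raised Slc3a2, by 1.38 ± 0.09, so Slc3a2 and Mat2a were called in the same direction in NoMethionine and in opposite directions in NoGlucose cells. Of the 12 integrated stress response genes given as context, 12 rose in NoMethionine (35.2% of all genes called) and 12 in NoGlucose cells (40.8%), 2 conditions in which Mat2a was called in opposite directions. With Torin 0 of those 12 rose and 7 fell (26.7% of all genes called), and with 4EGi1 7 rose and 0 fell (26.4%), while Mat2a fell with both. Any link between these genes and Mat2a was not tested.

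Folate carries the methyl group that methionine synthase uses, and of 13 folate genes tested 4 rose and 3 fell in total RNA of NoMethionine cells (35.2% of all genes called, list median -0.09). Shmt2 and Aldh1l2, of mitochondrial folate metabolism, rose by 0.70 ± 0.07 and 0.49 ± 0.11, and Shmt1, the cytosolic counterpart of Shmt2, fell by -0.36 ± 0.06. Of 9 cobalamin genes, which supply the cofactor of methionine synthase, 3 rose and 2 fell in total RNA (35.2% of all genes called) and 6 rose and 3 fell in polysome RNA (69.0%). Mmachc, which processes cobalamin on entry, rose by 0.36 ± 0.10 in total and by 0.89 ± 0.07 in polysome RNA, and Cd320, the receptor for transported cobalamin, fell by -1.15 ± 0.11 in polysome RNA.

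On the side of SAM use, 0 of the 5 polyamine genes rose and 4 fell in total RNA of NoMethionine cells (35.2% of all genes called, list median -0.33), and the counts were the same in NoGlucose cells (40.8%). Amd1, whose product decarboxylates SAM for polyamine synthesis, averaged 121 ± 7.67 CPM in NoMethionine cells and 196 ± 9.20 CPM in Control cells (-0.70 ± 0.08, edgeR adjusted p = 2.76e-07). In NoGlucose cells Amd1 averaged 69.8 ± 3.45 CPM (-1.49 ± 0.08, edgeR adjusted p = 6.93e-12). Amd2 is a near-identical copy of Amd1 at 0.886 ± 0.169 CPM in Control cells, so reads may be split between them and Amd1 is uncertain to that extent. Of 17 m6A genes tested 9 rose and 3 fell in total RNA of NoMethionine cells (35.2% of all genes called, list median 0.17). Mettl14 and Mettl3, the core of the main m6A writer, rose by 0.77 ± 0.10 and 0.41 ± 0.07, unlike Mettl16, and the eraser Alkbh5 fell by -0.65 ± 0.11. Of 20 other SAM-dependent methyltransferases 5 rose and 7 fell (35.2% of all genes called), with Icmt, which methylates prenylated proteins, at -0.51 ± 0.06 and Ezh2, the histone H3 lysine 27 methyltransferase, at 0.37 ± 0.07. Of 5 genes of SAM and amino acid sensing at mTORC1 3 rose and 0 fell (35.2% of all genes called), among them Itfg2 at 0.70 ± 0.08. Of the 4 salvage genes that follow Mtap 1 fell (35.2% of all genes called), Enoph1 at -0.32 ± 0.08. The 4 genes tested on homocysteine, adenosine and SAM handling had a median of -0.12 in total RNA, and in polysome RNA 1 rose and 3 fell (69.0% of all genes called), and the cystathionine genes Cbs and Cth were not analysed here. Among 9 genes of methionine in protein synthesis and repair 1 rose and 2 fell (35.2% of all genes called). Mars1, the cytosolic methionyl-tRNA synthetase, rose by 0.39 ± 0.07 and Mars2, the mitochondrial one, fell by -0.47 ± 0.07. Of the 4 genes given as partners of Mat2a RNA processing 2 rose and 0 fell in total RNA (35.2% of all genes called). The nuclear m6A reader Ythdc1 rose by 0.34 ± 0.11 and Cpsf7, a subunit of cleavage factor I, by 0.29 ± 0.07.

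**Figure D5:**
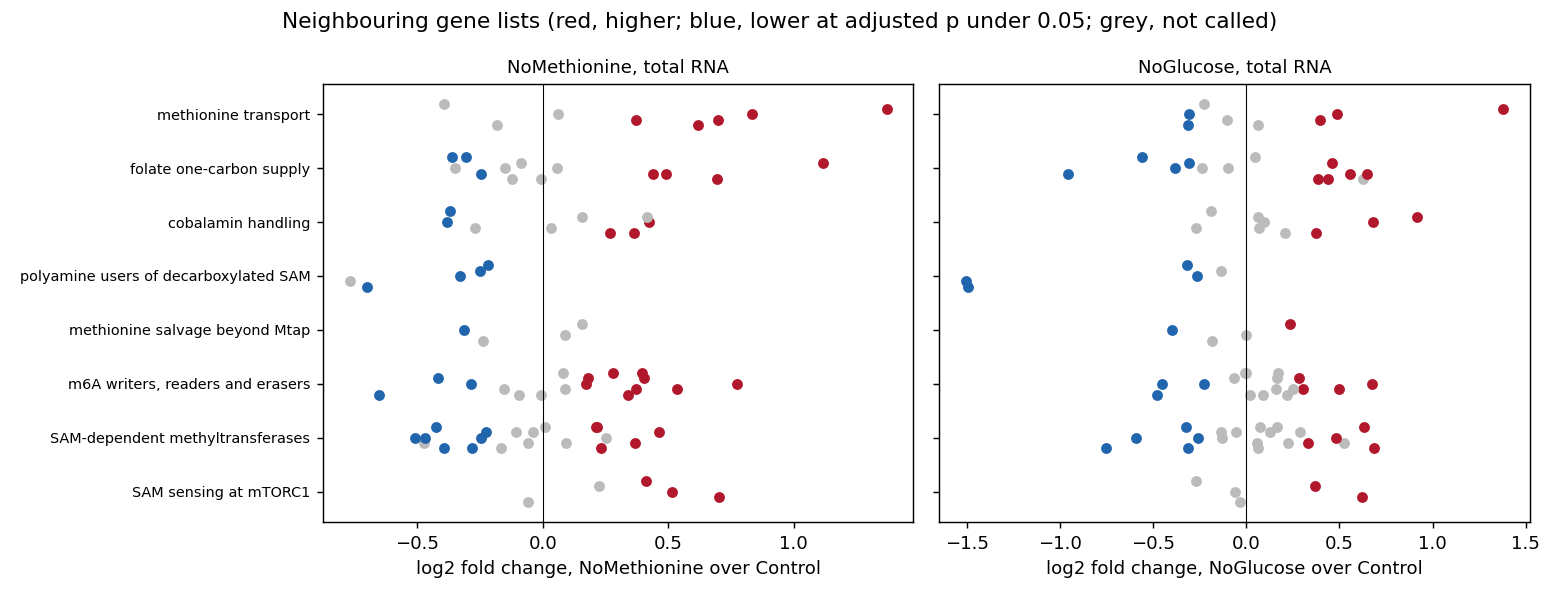
Log2 fold change in total RNA over Control (x axis) of the genes of 8 lists around the cycle (rows), in NoMethionine cells on the left and NoGlucose cells on the right. Each point is a gene, red where called higher, blue where called lower and grey where not called, and the vertical scatter within a row has no meaning. In NoMethionine cells no transport gene is blue and no polyamine gene is red.

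Genes with a pattern like that of each member were looked for over the 18 total RNA libraries of the nutrient experiment, by Pearson correlation of log2 CPM. These libraries share 6 conditions, so the values mostly restate group differences and are given without a test. The 6 most like Mat2a were Nabp1 (0.953), Gm42595 (0.949), Slc25a32 (0.938), ENSMUSG00000057134.7 (0.929), Gm47567 (0.924) and Zfp764 (0.918). Slc25a32 encodes the mitochondrial folate carrier, and its changes were -0.745 in NoGlucose and 0.101 in NoMethionine cells. Gm42595 had a change of -1.77 in NoGlucose cells, as Mat2a had, with 0.52 in NoMethionine cells. Over the 12 drug total RNA libraries the correlation with Mat2a was 0.705 for Slc25a32, 0.43 for Zfp764 and 0.429 for Nabp1, and -0.0322 to 0.229 for the other 3. The 3 least like it were Eif4a2 (-0.935), Smim10l1 (-0.917) and ENSMUSG00000029427.12 (-0.911). Among members, Ahcy ran against Mat2a (-0.822 over the 18 nutrient libraries, -0.191 over the 12 drug libraries). Mettl16 differed in sign between the experiments, at -0.62 and 0.827 in the same order. Mtap stood at 0.312 and 0.85 and Mat2b at -0.366 and -0.67. Mtrr stood at 0.622 and 0.199 and Mtr at -0.0263 and -0.229. The nearest to Ahcy were Mxd1 (0.931) and Eef1g (0.926), an elongation factor subunit, and Eef1g was also close to it over the 12 drug libraries (0.93). The nearest to Mtrr were Pramel12 (0.948) and Zkscan1 (0.916), to Mettl16 Prpf4b (0.942) and Stag1 (0.919), to Mtap Uxs1 (0.915) and Ccne1 (0.912), to Mtr Chd3 (0.885) and Nsd2 (0.873), and to Mat2b Prrg4 (0.871) and Brip1os (0.857). The annotation places other genes over 6 of the 7 members, such as Ggcx and Particl at Mat2a and Fastkd3 at Mtrr. Whether reads were counted by strand is not given in the sources used here, so reads of such partners cannot be told apart from those of the member.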

How the data were processed

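Total RNA and pooled polysome RNA of mouse CD8+ T cells were sequenced in 60 libraries, 20 groups of 3. Per the file headers and values, the authors deposited raw read counts per gene, whole numbers without normalization, for 14695 genes, 14246 with a symbol. The submitters' processing notes name STAR, HTSeq, edgeR, Trimmomatic, MultiQC and FastQC without versions, and build GRCm39. The 18 monosome libraries of the labels were not analysed here. Total RNA and polysome RNA of each experiment were fitted separately over all groups in R 4.3.3 with edgeR 4.0.16 (filterByExpr, minimum count 10, TMM, quasi-likelihood F test, Benjamini-Hochberg over all genes tested, threshold 0.05). TE was the interaction in a fit over both fractions. TMM removes a shift common to all genes, though the median TE of all genes stayed below 0 in each deprivation, as given above. Alternatives were RLE scaling, no filter, DESeq2 1.42.0, only the groups compared, replicate or lysate blocks, and libraries left out in turn. In the fits over both fractions a whole lysate, with its total and polysome library, was left out at a time. The fits were also run on simulated counts drawn independently for each library, which cannot show how they behave with libraries paired by lysate.

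The members, the lists and the rule for named genes were chosen with earlier results of these data known. The rule names all members, at most the 3 highest and 3 lowest called genes of a list, and the genes of highest correlation (6 for Mat2a, 2 for each other member, log2 CPM with prior count 2) and, for Mat2a, the 3 of lowest. One list gene that the rule names is not reported here. Within a fraction a shared replicate number was not used as a pairing, since residuals of same-numbered libraries correlated at means of 0.0353 to 0.0776, from -0.201 to 0.343. Each lysate gave both a total and a polysome library, per the labels' protocol, which pairs them across fractions. Their residuals correlated at means of 0.0552 and 0.107. A pair of polysome libraries, Torin replicate 3 and 4EGi1 replicate 2, carry an R of unstated meaning in their names and were used like the others. The alternative without them also left out, for TE, the total RNA libraries of the same lysates, whose names carry no R. The labels call the nutrient libraries total RNA and the drug libraries polyA RNA, so the experiments were not fitted together.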

Additional observations from a re-analysis of the deposited data

Results flagged for a closer look

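Ahcy met the rule for opposite effects under the same contrast in 2 comparisons, where total and polysome RNA were called in opposite directions. In NoMethionine cells against Control the difference between the fractions, tested as the TE interaction, was 0.44 ± 0.08 (edgeR adjusted p = 1.76e-05), with polysome RNA higher and total RNA lower in 3 of 3 libraries than in every Control library. In NoGlucose cells against Control it was -0.65 ± 0.08 (edgeR adjusted p = 1.9e-07), with polysome RNA lower and total RNA higher in 3 of 3 libraries, and there the total RNA call itself was lost without any 1 of the 6 libraries. With 3 libraries a group, no group was tested for outlying libraries.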

How the results depend on the processing

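No call of a member changed direction under any alternative. Over the members' results, RLE scaling left 261 on the same side of the threshold, weakened 3 and strengthened 2, no filter 264, 2 and 0, DESeq2 259, 1 and 6, only the groups compared 254, 12 and 0, and dropping ribosomal and mitochondrial entries 266, 0 and 0. Leaving out 1 library at a time, or 1 lysate in the fits over both fractions, gave 1479, 68 and 7. Of the counts of member calls, TE with the drugs (1) was 0 to 1 over lysates left out. It was 0 without the lysates of the libraries named R. NoMethionine against the other deprivations in total RNA (16) was 10 with only the groups compared. NoGlucose against NoGlutamine (2) was 1 under RLE scaling and with no filter and 1 to 2 over libraries left out. Mat2a with Halofuginone in total RNA passed only with DESeq2 (-0.27, adjusted p = 0.0191). With the replicate block 191 results of a single fraction kept their side and 5 passed that had not, Mtr (0.00605) and Ahcy (0.047) in NoArginine polysomes, Mtr between NoMethionine and NoGlucose polysomes (0.0424), Ahcy with Torin (0.0456) and Mtap between Torin and Halofuginone (0.0144) in total RNA, as edgeR adjusted p, and the counts of member calls were 16 (total RNA) and 30 (polysome RNA) in the nutrient experiment, where the fit without it gave 16 and 28. The lysate block kept 66 TE and ratio results and let 4 pass, those given above, and changed no other call of a member. RLE scaling moved the median TE of all genes by 0.13 in NoGlutamine, and no other scaling moved a median by over 0.1.

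Counts over all genes moved by over 1.5 times as follows. For TE, a library left out or named R took the other library of its lysate with it. NoArginine total RNA (1168) fell to 617 to 710 without a library and its TE (2162) to 526 to 1371, with 1326 for only the groups compared, and NoGlucose TE (3370) to 2168 without NoGlucose replicate 1. Halofuginone total RNA (35) was 85 by DESeq2 and 11 to 21 without a library, and its polysome RNA (6) 60 by DESeq2, 1 with only the groups compared and 3 without a library. Torin polysome RNA (2051) was 1180 to 1349 without a Torin library and 1285 without the libraries named R, and its TE (228) was 392 by DESeq2, 74 to 140 without a library and 88 without those named R. 4EGi1 polysome RNA (3497) was 2285 without those named R, and its TE (72) was 375 by DESeq2, 630 with the lysate block, 9 with only the groups compared, 8 to 117 without a library and 13 without those named R. With only the groups compared, NoMethionine in total RNA gave 1766 against NoArginine (3171), 705 against NoBCAA (1690) and 1864 against NoGlutamine (3247). The causes were not tested. In the nutrient experiment Mtr had the widest standard errors of the members, 0.13 to 0.14 in a single fraction and 0.19 for TE, so small changes of Mtr were not detectable at 3 libraries a group.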
